A study of Mus musculus with 9 samples.

Results

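The genes described here are 10 antioxidant enzymes and metallothioneins: Mt1, Mt2, Cat, Sod1, Sod2, Prdx1, Prdx5, Prdx6, Hmox1 and Nqo1. They were taken by name from the 33732 gene names of an exon table of RNA immunoprecipitation sequencing (RIP-seq), and all 10 were found in it. The names were chosen with earlier results of these data known. RIP-seq sequences the RNA that comes down with an antibody. The groups were HuR RIP, pulled down with an antibody to the RNA-binding protein HuR, IgG RIP, pulled down with control IgG, and Input, with 3 libraries each. All came from whole healthy liver of C57BL/6 WT mice aged 8 weeks, with no other treatment or allele given, and each pull-down used the native lysate of a single liver. The series set out to find the RNAs that HuR targets in mouse liver.

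Cells make superoxide and hydrogen peroxide as by-products of respiration and of fatty acid and drug oxidation, all of which are heavy in hepatocytes. Superoxide dismutases turn superoxide into hydrogen peroxide, which catalase and the peroxiredoxins then break down, while metallothioneins are small cysteine-rich proteins that hold zinc and copper. HuR, the product of Elavl1, binds U-rich and AU-rich stretches, most often in 3' untranslated regions (3' UTRs), and is known to affect how long an mRNA lasts and how well it is translated.

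Levels are in RPKM, in which reads are divided by exon length and library size, so genes of unequal length can be compared, and values of a group stand in the order of its libraries 1, 2 and 3. Library sizes were worked out here from the step that a single read makes in the RPKM values, and the read counts below rest on them. They ran between 26.3 and 26.9 M reads (M, mega) for HuR RIP. For IgG RIP they ran between 15.9 M (IgG 1) and 28.8 M (IgG 3). The part of each library's reads in listed exons was 43.2%, 27.9% and 60.5% in HuR RIP and 54.0%, 44.3% and 45.7% in IgG RIP. IgG 3 had 25451 exons above 0, against between 46814 and 62224 in the other RIP libraries. Whether this bears on levels of single libraries was not tested. Input was deposited as 1 mean value per exon over its libraries and carries no spread. The column marked M and HuR 2 held Xist at 10.2 RPKM and Ddx3y at 0.0188 RPKM, whereas the column marked F and HuR 3 held Xist at 0.463 RPKM and Ddx3y at 2.04 RPKM (Xist is the X-inactivation RNA of female cells, and Ddx3y lies on the Y chromosome). The deposited log2 ratios to Input also number HuR 2 and HuR 3 the other way round from these columns. HuR 2 and HuR 3 below are therefore named by their RPKM columns alone, and comparisons of whole groups do not depend on their order. All 8 hepatocyte markers were at 1 RPKM or more in each RIP library, with summed HuR RIP levels of 1172, 1124 and 1025 RPKM, IgG RIP levels of 898, 327 and 736 RPKM and an Input mean of 886 RPKM. Summed levels of the other marker lists are given with the limits at the end of these results. In such bulk RNA, fewer cells of a type and less RNA per cell cannot be told apart.

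The 3' UTRs of the members differ in the U-rich words that HuR is known for, and a stretch from 6 of them is shown to give the kind of U-rich or AU-rich letters meant. Whether they bear on the levels was not tested. Sequences and positions are those of GENCODE M21 on GRCm38 (mm10), read 5' to 3' on the strand of the transcript with T for U. Capitals mark the words searched for, on the transcript strand only and with overlapping matches counted. They were TTTTTTT, a plain run, then TTTATTT, a run broken by an A, then the pentamer ATTTA, and finally TATTTAT, which holds that pentamer.
Cat: ctcagaaTTTTTTTTTTTATTTttctaagg
Sod2: aagTTTTTTTTTTTTTTTTTTTTTTTggct
Prdx1: gcctagcTTTTTTTTTTTTTTTTaaatggg
Nqo1: ttcatgcTTTTTTTTTTTTTTTgatagttc
Prdx6: agcatgggatgTTTATTTctaggtgtcaag
Hmox1: tgggaaagaattATTTAatagttgtaacct
The Cat window lies at chr2:103454231-103454260 on the minus strand and the Sod2 window at chr17:13016712-13016741 on the plus strand. The Prdx1 window lies at chr4:116700012-116700041 on the plus strand and the Nqo1 window at chr8:107388677-107388706 on the minus strand. The Prdx6 window lies at chr1:161240437-161240466 on the minus strand and the Hmox1 window at chr8:75100512-75100541 on the plus strand.

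The longest unbroken T run was 23 bases in the Sod2 3' UTR, 16 in Prdx1, 15 in Nqo1 and 11 in Cat. In the longest annotated 3' UTR of each gene, the plain run occurred 36 times in Sod2, 16 times in Nqo1, 11 times in Prdx1 and 5 times in Cat. Length matters here: of annotated 3' UTRs within 10% of the same length, the plain run was found in 89.8% for Sod2 (4963 bases), 49.8% for Prdx1 (1566 bases), 35% for Cat (907 bases) and 19.9% for Nqo1 (594 bases). Mt1, Mt2, Sod1, Prdx5, Prdx6 and Hmox1 did not hold it. The pentamer occurred 12 times in Sod2, 3 times each in Cat and Prdx1, 2 times each in Mt1 and Prdx6 and 1 time each in Hmox1 and Nqo1. Of 3' UTRs of like length, it was found in 99.1% for Sod2, 70.2% for Cat, 85.8% for Prdx1, 69.5% for Mt1, 85.8% for Prdx6, 54.3% for Hmox1 and 56.8% for Nqo1. The longest Mt1 3' UTR (901 bases) lies in a listed exon of 1085 bases that runs across the gaps between shorter Mt1 exons. Both Mt1 pentamers, from bases 94179535 and 94180019, lie in those gaps. The shorter exons end at 94179338, run from 94179823 to 94179888 and start at 94180102, so an mRNA spliced from them lacks both. The short 3' UTRs of Sod1 (72 bases), Mt2 (141 bases) and Prdx5 (250 bases) held none of the 4 words. In Sod2 the T run lies at the start of a stretch of 182 bases, at positions 1542 to 1723 of the 3' UTR, that blastn matched at 90% identity or more over at least 100 bases in transcripts of 791 other genes. The Sod2 3' UTR runs to base 13020134, but the last listed Sod2 exon ends at 13018119. Words past that point, such as the plain run at position 4414, lie outside the listed exons. Of 5 listed exons each, 3 of Sod1 and 3 of Sod2 match annotated exons exactly.

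HuR RIP against IgG RIP asks which of these mRNAs came down with the HuR antibody beyond a control antibody. Cat, Sod2, Prdx1 and Prdx6 were higher in all 3 HuR libraries than in any IgG library, Mt1, Sod1 and Hmox1 were spread over both groups, and Prdx5 leaned the other way. HuR RIP thus lay wholly above IgG RIP in 4 of the 8 members that could be tested, as it did in 31.3% of all genes tested. Of those 8, 0 passed the threshold in either direction (limma), where 0.672% of all genes passed as higher and 0.127% as lower. The order of mean level in HuR RIP was Cat, Sod1, Sod2, Prdx1, Prdx6, Mt1, Prdx5, Mt2, Hmox1 and Nqo1. The lowest HuR library of Cat lay above the highest of Sod1, and the lowest of Prdx6 above the highest of Mt1, while the HuR ranges of all other neighbours in that order overlapped.

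**Figure D1:**
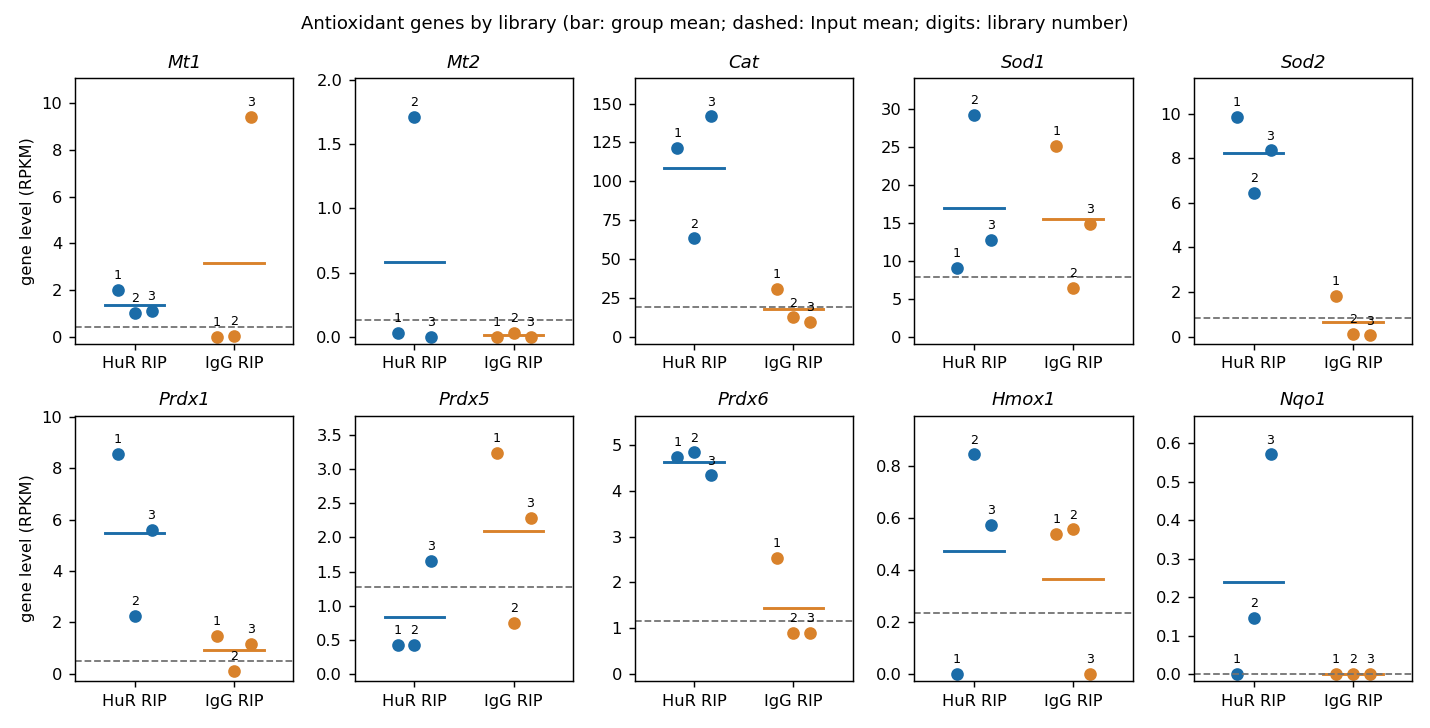
Gene level in RPKM of each of the 10 genes (panels, each with its own linear axis from 0), with the 3 HuR RIP libraries left, the 3 IgG RIP libraries right, horizontal bars at the group means and a dashed line at the Input mean. Cat, Sod2, Prdx1 and Prdx6 are the panels in which every HuR point lies above every IgG point, and the Mt1 mean in IgG RIP is carried by IgG 3.

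Catalase, encoded by Cat (ENSMUSG00000027187.10, chr2:103453849-103485160, minus strand), is the peroxisomal enzyme that splits hydrogen peroxide into water and oxygen. Cat had HuR RIP levels of 122, 63.2 and 142 RPKM, IgG RIP levels of 30.5, 12.3 and 9.61 RPKM and an Input mean of 19.3 RPKM. They rest on HuR RIP counts of 8451, 4349 and 9966 reads and IgG RIP counts of 1265, 860 and 724 reads, the most of any member. HuR 2 was the lowest HuR library and IgG 1 the highest IgG library, and the groups did not overlap. Group means were 109 ± 40.8 RPKM for HuR RIP and 17.5 ± 11.4 RPKM for IgG RIP (SD, n = 3 each). The log2 fold change on the log2(RPKM + 0.5) scale was 2.70 (SE 1.03), with an adjusted p of 0.0999 (limma, two-sided, Benjamini-Hochberg over 5510 genes). It did not pass the threshold of 0.05.

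Within Cat the difference lay at the 3' end. The terminal exon block, the merged exons that hold the end of the gene (973 bases, with the 3' UTR window shown above), had HuR RIP levels of 305, 152 and 368 RPKM, IgG RIP levels of 60.1, 15.7 and 24.6 RPKM and an Input mean of 15.6 RPKM. The rest of the gene had HuR RIP levels of 12.7, 10.8 and 7.66 RPKM, IgG RIP levels of 12.96, 10.4 and 0.740 RPKM and an Input mean of 21.5 RPKM. The groups were apart in the terminal block and overlapped in the sum over the other 12 blocks, in which every RIP library lay below Input. The difference between the blocks was not itself tested. The terminal block took 93.1% ± 3.66 of the Cat reads in HuR RIP and 71.9% ± 24.0 in IgG RIP (SD, n = 3 each), against 30.2% in the Input mean, although it is 37.2% of the exon length. IgG 3, at 95.2%, was the IgG library within the HuR range. As a deposited exon, this 973-base exon gave 3.40 on the log2 scale (SE 0.96, adjusted p = 0.154 by limma over 15298 exons). The 227-base exon inside it came to 1.91 (SE 0.93, adjusted p = 0.270). Farther 5', 10 exons that averaged 5 RPKM or more in a group had log2 fold changes between -0.94 and 1.76, with no adjusted p under 0.504. An exon of 139 bases, named after its values were seen, ran the other way: it was at 0 RPKM in every HuR library and at 6.35, 4.86 and 2.25 RPKM in IgG 1, 2 and 3. It entered the exon test through its IgG libraries alone, so its fitted -3.22 (SE 0.84, unadjusted p = 0.0033, adjusted p = 0.154) is a description. Single libraries held many of their reads: the 105-base block in the middle of the gene was at 78.0 RPKM in HuR 1 and listed at 0 in HuR 2 and HuR 3, against 22.2, 8.57 and 0 RPKM in IgG 1, 2 and 3.

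**Figure D2:**
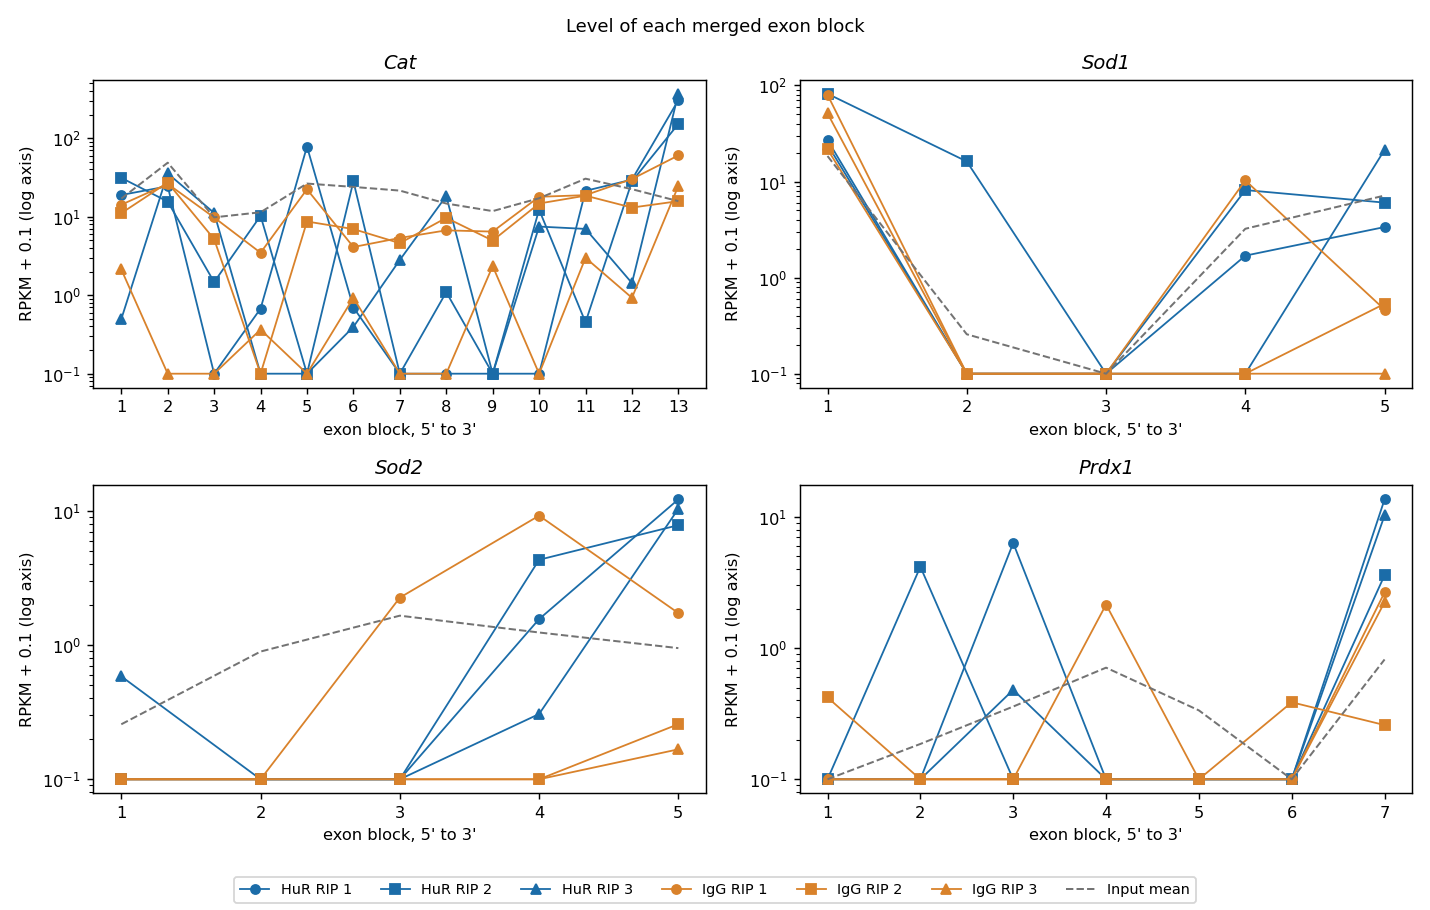
Level of each merged exon block in order from 5' to 3' for Cat, Sod1, Sod2 and Prdx1, as RPKM + 0.1 on a log axis, with HuR RIP libraries in blue, IgG RIP libraries in orange and the Input mean as a dashed grey line. The last block of Cat, Sod2 and Prdx1 holds the highest level of each HuR library, up to 368, 12.1 and 13.5 RPKM, except for Prdx1 in HuR 2, where block 2 (4.07 RPKM) lies above it (3.49 RPKM), while in Sod1 the first block is the highest in all 6 RIP libraries and both groups share its range.

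Sod2 (ENSMUSG00000006818.5, chr17:13006846-13040063, plus strand) encodes the manganese superoxide dismutase of the mitochondrial matrix. Sod2 had HuR RIP levels of 9.85, 6.45 and 8.35 RPKM, IgG RIP levels of 1.81, 0.128 and 0.0544 RPKM and an Input mean of 0.840 RPKM. They rest on HuR RIP counts of 1002, 649 and 859 reads and IgG RIP counts of 110, 13 and 6 reads. All HuR libraries lay above all IgG libraries, and IgG 1 alone among the IgG libraries was above Input. Group means were 8.21 ± 1.70 RPKM for HuR RIP and 0.665 ± 0.996 RPKM for IgG RIP (SD, n = 3 each). The log2 fold change was 3.21 (SE 0.79, adjusted p = 0.0527 by limma), the largest among the members tested and 46th of 5510 genes by p. It missed the threshold of the planned test, and passed it in 5 of the 20 other settings tried, in which its adjusted p ran between 0.00314 and 0.540. The 5 were sample quality weights, protein-coding genes alone, a filter at 1 RPKM, the terminal exons alone and the fit without IgG 1.

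The reads of Sod2 lay almost wholly in its last listed exon, of 3094 bases, which holds the T run shown above. That exon had HuR RIP levels of 12.1, 7.72 and 10.3 RPKM, IgG RIP levels of 1.63, 0.158 and 0.0673 RPKM and an Input mean of 0.849 RPKM. It held 98.6% ± 1.45 of the Sod2 reads in HuR RIP and 90.9% ± 15.7 in IgG RIP (SD, n = 3 each), against 81.8% in the Input mean, and it makes up 80.9% of the exon length. By library the shares were 99.3%, 96.9% and 99.5% in HuR RIP and 72.7%, 100% and 100% in IgG RIP. IgG 2 and IgG 3 thus lay above every HuR library, but held 13 and 6 Sod2 reads. The log2 fold change of this exon as deposited was 3.48 (SE 1.03, adjusted p = 0.154, limma). The table gives 1 value for the whole exon, so how many of its reads fell in the 182 bases shared with other genes was not tested.

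Sod1 (ENSMUSG00000022982.10, chr16:90220754-90226329, plus strand) encodes the copper and zinc superoxide dismutase of the cytosol. Sod1 had HuR RIP levels of 9.02, 29.3 and 12.7 RPKM, IgG RIP levels of 25.2, 6.39 and 14.9 RPKM and an Input mean of 7.81 RPKM. HuR 2 and IgG 1 were the high libraries, and the groups overlapped throughout. Group means were 17 ± 10.8 RPKM for HuR RIP and 15.5 ± 9.41 RPKM for IgG RIP (SD, n = 3 each), which left 0.15 on the log2 scale (SE 0.95, adjusted p = 0.912, limma). This gene sum joins exons with unlike values. The first exon, of 188 bases, had HuR RIP levels of 27.0, 81.8 and 24.1 RPKM, IgG RIP levels of 79.8, 21.6 and 51.1 RPKM and an Input mean of 18.3 RPKM (log2 fold change -0.24, SE 0.98, adjusted p = 0.896). The last exon, of 173 bases, had HuR RIP levels of 3.26, 5.93 and 21.3 RPKM, IgG RIP levels of 0.365, 0.434 and 0 RPKM and an Input mean of 7.04 RPKM (log2 fold change 3.45, SE 1.06, adjusted p = 0.154). No IgG library reached 0.5 RPKM in it, so it entered the test through the HuR libraries alone and its fold change is a description. The first exon was high in both pull-downs with overlap, while in the last exon every HuR library lay above every IgG library, although HuR 3 alone was above Input. The gene Scaf4 (chr16:90225680-90284503, minus strand) overlaps that last exon on the other strand, and no source used here states whether the counting was stranded. The processed pseudogene Gm8566 matches 465 bases of Sod1 transcript at 97.8% identity and had HuR RIP levels of 0.485, 4.41 and 0.0799 RPKM and IgG RIP levels of 5.43, 3.15 and 18.4 RPKM, so the Sod1 level is uncertain to the extent that reads were split with it. A 97-base exon was at 16.1 RPKM in HuR 2 and listed at 0 in the other RIP libraries.

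Prdx1 (ENSMUSG00000028691.12, chr4:116685544-116700822, plus strand) encodes a peroxiredoxin of the cytosol, which reduces peroxides with electrons from thioredoxin. Prdx1 had HuR RIP levels of 8.53, 2.27 and 5.59 RPKM, IgG RIP levels of 1.49, 0.111 and 1.16 RPKM and an Input mean of 0.488 RPKM. HuR 2 was the lowest HuR library and still lay above IgG 1, the highest IgG library. The log2 fold change was 2.08 (SE 0.79, adjusted p = 0.101, limma), which did not pass. The terminal block, of 1652 bases and with the T run shown above, had HuR RIP levels of 13.5, 3.49 and 10.2 RPKM, IgG RIP levels of 2.56, 0.159 and 2.14 RPKM and an Input mean of 0.719 RPKM. It took 89.4% ± 8.15 of the Prdx1 reads in HuR RIP and 90.3% ± 11.4 in IgG RIP (SD, n = 3 each), against 79.9% in the Input mean. These shares of the 2 pull-downs differed by less than their SD. A 117-base exon at 15.6 RPKM in HuR 1 was listed at 0 in the other RIP libraries, and a 102-base exon was at 17.2 RPKM in IgG 3 and listed at 0 in every HuR library. The processed pseudogene Gm21399 matches Prdx1 over 597 bases at 98.3% identity and was at 0 in every HuR library, against 1.06, 0.691 and 0 RPKM in IgG 1, 2 and 3.

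Prdx6 (ENSMUSG00000026701.15, chr1:161240112-161251219, minus strand) encodes a peroxiredoxin that uses glutathione and also acts on phospholipids. Prdx6 had HuR RIP levels of 4.74, 4.84 and 4.34 RPKM, IgG RIP levels of 2.53, 0.906 and 0.895 RPKM and an Input mean of 1.16 RPKM. The HuR libraries were nearly level with each other, at 4.64 ± 0.264 RPKM, and above all IgG libraries, at 1.44 ± 0.942 RPKM (SD, n = 3 each). The log2 fold change was 1.502 (SE 0.76, adjusted p = 0.177, limma). That evenness did not extend to the exons. The terminal block had HuR RIP levels of 10.7, 4.68 and 10.2 RPKM and IgG RIP levels of 4.72, 1.77 and 2.45 RPKM, so HuR 2 fell just under IgG 1. HuR 2 instead had 20.2 and 12.1 RPKM in a pair of internal exons of 147 bases each, against at most 5.04 and 2.30 RPKM in the IgG libraries. The related gene Prdx6b matches Prdx6 over 1444 bases at 90.1% identity and had HuR RIP levels of 1.198, 0 and 0.309 RPKM and IgG RIP levels of 0.153, 0.0260 and 0 RPKM.

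Prdx5 (ENSMUSG00000024953.17, chr19:6906697-6910106, minus strand) encodes a peroxiredoxin found in mitochondria, peroxisomes and the cytosol. Prdx5 had HuR RIP levels of 0.421, 0.426 and 1.65 RPKM, IgG RIP levels of 3.23, 0.746 and 2.29 RPKM and an Input mean of 1.28 RPKM. HuR 1 and HuR 2 lay below every IgG library and HuR 3 lay among them. The log2 fold change was -0.94 (SE 0.73, adjusted p = 0.358, limma), the only negative one among the members tested. In IgG 3 most of the level came from a 62-base exon at 59.2 RPKM, while the HuR libraries and IgG 1 had 0 there and IgG 2 had 1.36 RPKM. A 132-base exon had HuR RIP levels of 0.757, 0 and 10.3 RPKM and IgG RIP levels of 17.8, 4.36 and 0 RPKM (log2 fold change -0.90, SE 1.58, adjusted p = 0.742). Its first exons overlap Trmt112 on the other strand, and the sources used here do not say whether reads were counted by strand.

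The metallothioneins were low in this table. Mt1 (ENSMUSG00000031765.8, chr8:94179082-94180327, plus strand) had HuR RIP levels of 2.02, 1.01 and 1.103 RPKM, IgG RIP levels of 0, 0.0301 and 9.41 RPKM and an Input mean of 0.413 RPKM. IgG 3 held 338 reads of Mt1, against 67, 33 and 37 reads in HuR 1, 2 and 3 and 1 read in IgG 2. A 66-base exon at 55.5 RPKM in IgG 3 was listed at 0 in the other 5 RIP libraries. The last exon of Mt1, of 226 bases, had 3.71, 0.224 and 1.97 RPKM in HuR 1, 2 and 3 and was listed at 0 in all IgG libraries. The IgG libraries of Mt1 differed more than the group means did, which were 1.38 ± 0.560 RPKM for HuR RIP and 3.15 ± 5.42 RPKM for IgG RIP (SD, n = 3 each). The log2 fold change was 0.40 (SE 0.95, adjusted p = 0.766, limma), opposite in sign to the difference of those means, and turned negative in 6 of the 20 other settings. Mt2 (ENSMUSG00000031762.7, chr8:94172664-94173568, plus strand) had HuR RIP levels of 0.0320, 1.71 and 0 RPKM, IgG RIP levels of 0, 0.0319 and 0 RPKM and an Input mean of 0.133 RPKM. HuR 2 alone held more than 1 read, mostly in the first exons, where Mt2 overlaps the antisense gene Gm45774, with 15.1% in the last block, and Mt2 did not reach the test.

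Hmox1 (ENSMUSG00000005413.8, chr8:75093621-75100589, plus strand) encodes heme oxygenase 1, which opens the heme ring and is induced by oxidative stress through the factor NRF2. Hmox1 had HuR RIP levels of 0, 0.846 and 0.573 RPKM, IgG RIP levels of 0.540, 0.557 and 0 RPKM and an Input mean of 0.235 RPKM. Each group had 1 library listed at 0, and the log2 fold change was 0.13 (SE 0.52, adjusted p = 0.862, limma). Nqo1 (ENSMUSG00000003849.8, chr8:107388225-107403206, minus strand) encodes a quinone reductase that is a standard NRF2 target. Nqo1 had 0, 0.146 and 0.571 RPKM in HuR 1, 2 and 3, resting on 0, 4 and 16 reads, and was listed at 0 in all IgG libraries and in the Input mean. A count of 0 allows up to 0.182, 0.108 and 0.0999 RPKM in IgG 1, 2 and 3 (3 reads per library, counting error only), so HuR 3 was above what those libraries allow and HuR 2 was not above the limit of IgG 1. Nqo1 was too low to be tested, and the table lists 2 of its exons.

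At an unadjusted p under 0.05, Sod2, Cat and Prdx1 were higher, 3 of 8 against 27.9% of all genes, and 0 were lower against 3.19%. The members' median log2 fold change was 0.95, against 0.92 for all 5510 genes, of which 79.1% were positive. All members are protein-coding, and over the 3943 protein-coding genes the median was 1.08, above that of the members, with 3566 positive. The whole table was shifted toward HuR RIP, so the members are also given relative to the median of all 5510 genes: Sod2 lay 2.29 above it, Cat 1.78, Prdx1 1.16 and Prdx6 0.58 on the log2 scale. Relative to it, Mt1 was at -0.52, Sod1 at -0.77, Hmox1 at -0.79 and Prdx5 at -1.86. The counts of the members are thus near those of the table as a whole. The scaling sets part of this: with libraries centred at their median, Sod2 was at 2.11, Cat at 1.599, Prdx1 at 0.98 and Prdx6 at 0.40, the members' median at -0.15, and 1 gene of the table passed as higher and 18 as lower, in place of 37 and 7. TMM-like scaling, by trimmed mean ratios, gave 50 higher and 346 lower. When protein-coding genes alone were tested, Cat, Prdx1 and Sod2 passed as higher, 3 of 8, against 18.5% of all 3943 genes tested.

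**Figure D3:**
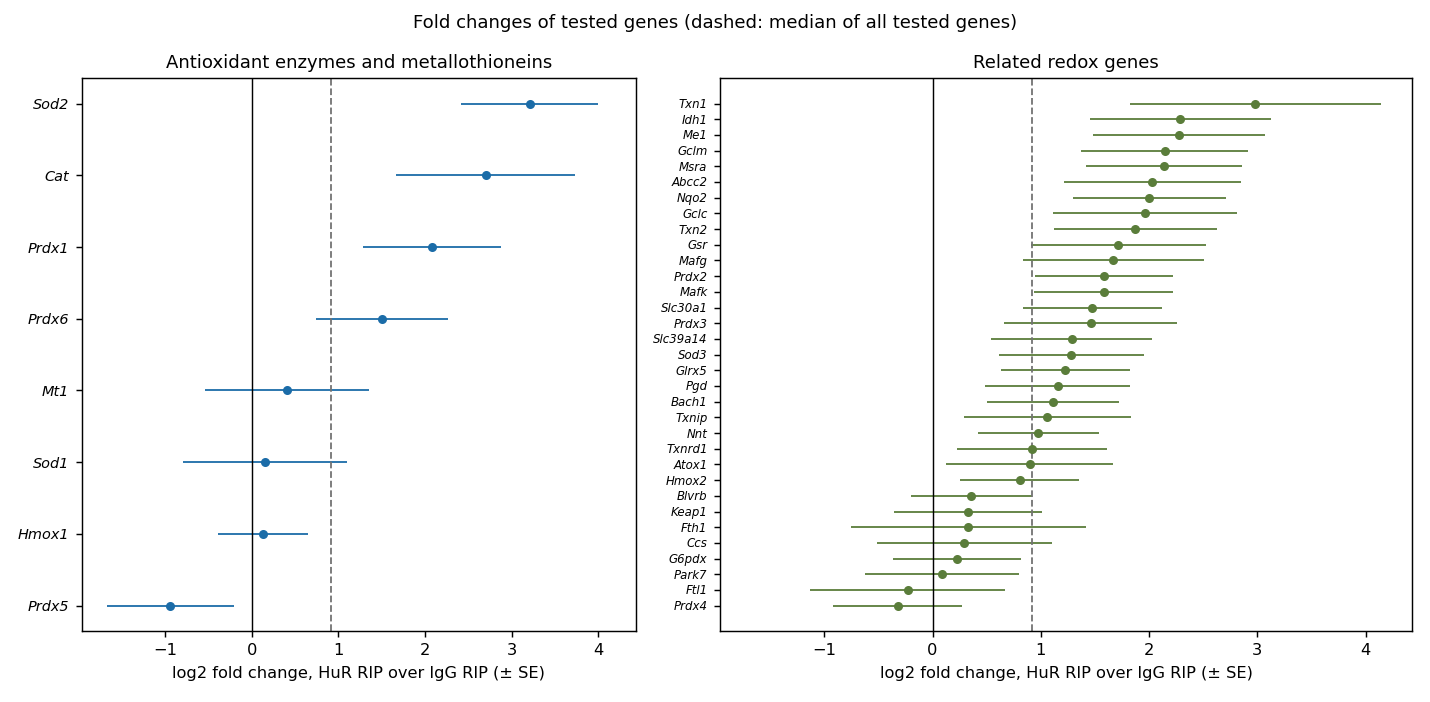
Log2 fold change of HuR RIP over IgG RIP with its SE for the 8 members tested (left) and the 33 related redox genes tested (right), sorted by size, with a solid line at 0 and a dashed line at 0.92, the median of all genes tested. Sod2, Cat, Prdx1 and Prdx6 lie right of the dashed line and the other 4 members left of it.

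Against the Input mean, which has no replicate and so no test, Mt1, Cat, Sod1, Sod2, Prdx1 and Prdx6 were above it in all 3 HuR libraries. These are 6 of the 8 members tested, where 68.9% of all genes tested were. No member was above Input in all 3 IgG libraries, where 20.7% of all genes tested were. The mean log2 ratio to Input of (RPKM + 0.5) for Cat was 2.39 in HuR RIP and -0.31 in IgG RIP, where the 3 IgG libraries ran between -0.97 and 0.65.

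Because reads of several members gathered in the terminal block, the fit was repeated on that block alone and on the genes without it, a choice made after the values were seen. On the terminal block, Sod2 (log2 fold change 3.48, SE 0.89, adjusted p = 0.0271) and Cat (3.15, SE 0.92, adjusted p = 0.0329) passed as higher among 7 members tested (limma, 3987 genes), where 20.7% of all genes did. Sod1 (3.45, SE 0.89, adjusted p = 0.0276) also lay under the threshold, but its terminal block entered the test through the 3 HuR libraries alone, so that value is a description and lends no weight to a count. Prdx1 had 2.27 (adjusted p = 0.0783) and Prdx6 had 1.38 (adjusted p = 0.220). Over all settings tried, the adjusted p ran between 0.0276 and 0.948 for Sod1, 0.00713 and 0.700 for Cat, 0.00611 and 0.540 for Prdx1, and 0.0219 and 0.892 for Prdx6. HuR RIP lay wholly above IgG RIP in the terminal block of Cat, Sod2 and Prdx1 among the 7 members tested, against 45.4% of all genes. It did so in Sod1 too, which is a description for the reason given above. Without the terminal block, 4 members could be tested, 0 passed, against 0.325% of all genes as higher, and 0 had an unadjusted p under 0.05, against 9.1% as higher. Prdx6 was then at 1.40 (adjusted p = 0.531), Cat at 0.91 (adjusted p = 0.700), Sod1 at -0.18 (adjusted p = 0.948) and Prdx5 at -0.47 (adjusted p = 0.817) on the log2 scale. A high terminal share in HuR RIP was not limited to members such as Cat. Over 3832 protein-coding genes the terminal block took a median of 88.4%, 71.1% and 88.5% of a gene's reads in HuR 1, 2 and 3. IgG 1, 2 and 3 were at 53.6%, 44.2% and 30% and the Input mean at 44.0%. Not all members shared this gap: by mean share, Cat, Sod1, Sod2 and Prdx5 were higher in HuR RIP and Prdx1 and Prdx6 lower. The Prdx6 share was 67.2% ± 27.9 in HuR RIP and 79.1% ± 17.5 in IgG RIP (SD, n = 3 each).

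**Figure D4:**
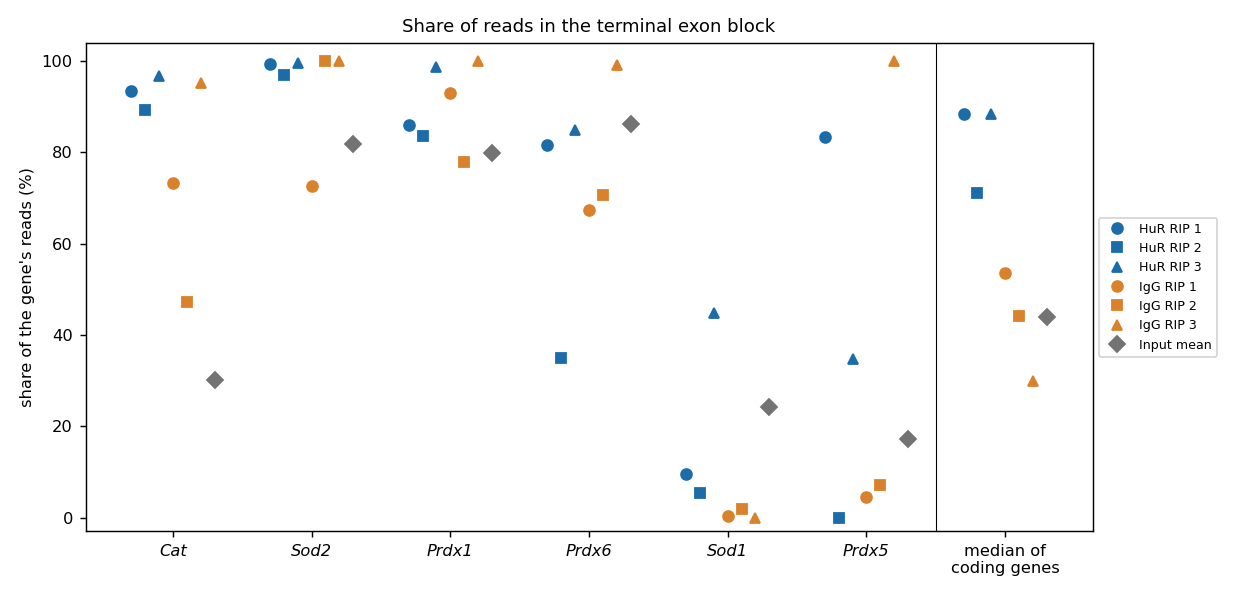
Share of each gene's reads, in percent, that lay in its terminal exon block, for 6 members and, right of the line, the median over 3832 protein-coding genes, with HuR RIP libraries in blue, IgG RIP libraries in orange and the Input mean in grey. For Cat the HuR points lie above the IgG 1, IgG 2 and Input points. For Sod2, Prdx1 and Prdx6 the groups are mixed, and for Sod1 all points lie at or under 44.8%.

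At the level of deposited exons, the members have 96, of which 38 were tested. In that test 0 passed in either direction, as did 0% of all 15298 exons (limma). At an unadjusted p under 0.05, 5 member exons were higher, against 17.6% of all exons, and 1 was lower, against 3.33%. The last exon of Sod1 is among the 5 and the 139-base exon of Cat is the 1, each tested through its high group alone, so nothing is read from these counts. HuR RIP lay wholly above IgG RIP in 6 of the 38, against 24.9% of all exons. The last exon of Sod1 is among these 6 too, so nothing is read from that count either. The members' median was 0.48 on the log2 scale, against 0.84 for all exons. In the authors' deposited table, the q-value for HuR against IgG of the last exons of Cat, Sod1, Sod2 and Prdx1 was 0.541. Many other member exons share this value, the lowest among the members. They include nearly empty exons of Mt2 and the 139-base exon of Cat, so it does not set those last exons apart.

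Of 51 related redox genes in the table, 33 were tested, 0 passed in either direction (limma) and 14 had an unadjusted p under 0.05 as higher, against 27.9% of all genes, with 0 as lower, against 3.19%. With protein-coding genes alone 7 of the 33 passed as higher, against 18.5% of all. On the terminal block 10 of 31 did, against 20.7% of all. Whether any of these 10 entered that test through the HuR libraries alone was not tested, so nothing is read from that count. In the planned test the median log2 fold change of the 33 was 1.28, against 0.92 for the table as a whole. Of the 33, 31 were positive, against 79.1%, and 15 lay wholly above IgG RIP, against 31.3%. Over protein-coding genes alone, the median was 1.08 and 3566 of 3943 were positive. The smallest p-values belonged to Msra, a methionine sulfoxide reductase (2.14, adjusted p = 0.0815), Me1, malic enzyme (2.28, adjusted p = 0.0858), Nqo2, a quinone reductase related to Nqo1 (2.001, adjusted p = 0.0874), Gclm, the modifier subunit of the enzyme that starts glutathione synthesis (2.14, adjusted p = 0.0921), Idh1, cytosolic isocitrate dehydrogenase (2.29, adjusted p = 0.0921), and Prdx2, a cytosolic peroxiredoxin close to Prdx1 (1.58, adjusted p = 0.108). Nqo2 had HuR RIP levels of 3.05, 3.20 and 1.77 RPKM and IgG RIP levels of 1.08, 0.0781 and 0.00903 RPKM. Every HuR library of Nqo2 lay above every IgG library. Prdx2 had HuR RIP levels of 2.71, 1.31 and 1.27 RPKM and IgG RIP levels of 0.558, 0.209 and 0.00773 RPKM. By role, 3 of 3 tested genes of glutathione synthesis and recycling had an unadjusted p under 0.05 as higher, as did 3 of 7 of the thioredoxin system and its peroxiredoxins, 2 of 5 suppliers of NADPH and 1 of 4 regulators of NRF2, in groups drawn up after the values were known and of a size from which no difference from those 27.9% can be read. Nfe2l2, which encodes NRF2, was too low to be tested, and Keap1, its inhibitor, stood at 0.33 on the log2 scale.

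Summed marker levels moved with the groups in part. Cholangiocyte markers summed to HuR RIP levels of 13.1, 3.78 and 7.62 RPKM and IgG RIP levels of 0.662, 0.575 and 0.0343 RPKM, with 0 of 5 above 0 in every RIP library. Kupffer cell markers summed to between 4.83 and 11.99 RPKM in HuR RIP and between 2.71 and 8.47 RPKM in IgG RIP, with 4 of 8 above 0 in every RIP library. Endothelial markers (3 of 7 so) summed to between 2.19 and 6.22 RPKM in HuR RIP and between 0.597 and 4.65 RPKM in IgG RIP, and stellate markers (5 of 6 so) to between 2.16 and 8.90 RPKM in HuR RIP and between 0.575 and 5.62 RPKM in IgG RIP. Erythroid markers (4 of 5 so) summed to between 64.5 and 172 RPKM in HuR RIP and between 98.7 and 234 RPKM in IgG RIP. The part of these cells in the members' levels was not tested.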

How the data were processed

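The 9 libraries were made with a total RNA kit for Ion sequencing, per the labels' protocols. The submitters' processing notes name Bowtie2, featureCounts and the build mm10 with no version (not given in the sources used here). Deposited by the authors were exon RPKM, 1 Input value that whole-read steps of 3 sizes show to be a mean, log2 ratios to Input, and p-values and q-values of an unnamed test. Decimal marks were missing from values of 1 and above. These were restored from their digits and the deposited log2 ratios: of 138826 distinct lines, 138763 matched all 6 ratios within 1e-05, and 3 were ambiguous.

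Overlapping exons share reads, as the values show, so gene RPKM is the length-weighted sum over exon lines divided by merged exon length. Gene sums came out whole within 0.05 of a read for 85.3% to 89.3% of genes per library, too few for a count test. The plan's test was kept: limma 3.58.1 (R 4.3.3, trend, robust, two-sided, Benjamini-Hochberg) on log2(RPKM + 0.5), for genes at 0.5 RPKM or more in at least 3 of 6 RIP libraries, with 0.05 as threshold. It was also run on simulated data, with planted fold changes larger than any the planned test gave for a member. That run does not measure how often changes of the members' size are found. Input entered no fit. The p-values measure the spread between these libraries.

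The named genes are all 10 members, up to 6 redox genes by smallest p beside any past the threshold, and member exons averaging 5 RPKM or more in a group. Members and lists were chosen with earlier results of these data known. Alternatives changed the scaling, pseudocount, filter, moderation, weights, genes tested, exon summing, pairing and libraries. Sequences and like transcripts came from GENCODE M21 with blastn 2.17.0. Python 3.11.15, pandas 2.3.3 and matplotlib 3.10.9 did the rest.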

Additional observations from a re-analysis of the deposited data

How the results depend on the processing

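The number of genes past the threshold, 37 higher and 7 lower, depended on the setting, while Sod2, Cat, Prdx1 and Prdx6 stayed positive and Prdx5 negative in every setting that could test them. Centring libraries at their median gave 1 higher and 18 lower and set the median of all genes at -0.18, TMM-like scaling 50 higher and 346 lower, and quantile normalization 5 and 4. A pseudocount of 1 gave 3 and 1, no filter 0 and 0, a filter at 1 RPKM 145 and 21, no trend 4 and 1, sample quality weights 2296 and 84, and exons counted once 0 and 0. Protein-coding genes alone gave 728 higher, 18.5% of 3943, with Cat, Prdx1 and Sod2 among them. The terminal block alone gave 824 and 4, and genes without it 7 and 2, both chosen after seeing the data. Leaving out 1 library gave between 0 and 1761 higher and between 0 and 30 lower genes: 7 and 4 without HuR 1, 18 higher without HuR 2, 11 higher without HuR 3, 1761 and 28 without IgG 1, 0 and 0 without IgG 2, and 30 lower without IgG 3. Without HuR 3 and IgG 1 together it was 294 and 21. Per exon, where 0 passed either way, leaving out 1 library gave between 0 and 45 higher and between 0 and 9 lower, with 45 and 9 without HuR 2 and 6 and 2 without HuR 3. The cause of these moves was not tested. Without IgG 1, the adjusted p of both Sod2 and Cat was 0.0228.

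Directions turned for members near 0. Mt1 was -0.70 centred, -0.63 with TMM-like scaling, -0.45 with quantile normalization, -0.23 without HuR 3 and IgG 1, and between -0.33 and 1.83 with 1 library left out. Sod1 was -0.95, -1.42 and -0.33 under the same 3 scalings, -0.18 without its terminal block, and between -0.36 and 0.59 with 1 library left out. Hmox1 was -0.97, -0.39 and -0.59 under them, -0.050 with quality weights, and between -0.23 and 0.55 with 1 library left out. The first exon of Sod1 was between -0.79 and 0.18 and the 172-base exon of Cat between -0.16 and 2.73 with 1 library left out. The replicate block gave 0 higher and 0 lower genes, also with HuR 2 and HuR 3 exchanged, a pairing chosen after seeing the data. Deviations of same-numbered libraries correlated at 0.138, 0.117 and 0.0860 across genes for numbers 1, 2 and 3. These were each library's highest, which is a hint from the data, and all other pairs were at -0.00149 or lower. The column names mark numbers 1 and 2 as M and 3 as F in both groups. In IgG 1, 2 and 3, Xist was at 0.00704, 0.103 and 0.359 RPKM and Ddx3y at 0.328, 0.0558 and 0 RPKM. Xist was thus highest in the column of IgG 3 but, in HuR RIP, in that of HuR 2, so these marks do not settle the numbering. The labels do not say whether a number marks 1 animal, so the pairing is not known. Depth limits Mt2 and Nqo1 most, with at most 26.5 and 16 reads in a library, and reads without molecular identifiers are not independent molecules.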
